A study of Mus musculus with 180 samples.

Results

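The proteasome subunit genes were described across the ribosome captures, cell fractions, training and sleep groups of a mouse hippocampus study. Members were taken by symbol: every gene of the deposited count table whose symbol starts with Psm, a letter from a to g and a number, leaving out 4 pseudogene symbols that carry -ps. This gave 50 of the 54429 genes in the table. By their known roles they fall into 7 alpha and 7 beta genes of the constitutive core particle, 5 core genes used in particular tissues or in immune cells, 6 ATPase and 3 non-ATPase genes of the base, 8 genes of the lid, 3 chaperones of the regulatory particle, 5 activators of the core, the core regulator Psmf1 (PI31), 4 chaperones of the core particle, and Psmc3ip. Psmc3ip encodes a meiotic recombination protein and was matched by its name only.

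The proteasome is the cell's main machine for destroying proteins marked with ubiquitin. Its barrel-shaped core holds the cutting sites, carried by the beta subunits Psmb5, Psmb6 and Psmb7, and the regulatory particle recognises ubiquitin, removes it and threads the protein into the barrel with a ring of ATPases. In neurons, protein breakdown by the proteasome takes part in synaptic plasticity and memory, and interferon-induced subunits (Psmb8, Psmb9 and Psmb10) replace the constitutive ones where peptides are made for antigen presentation.

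RNA came from the hippocampus of 30 male mice, all from a cross of the B6.Cg line that carries Tg(Camk2a-cre)T29-1Stl/J with B6N.129-Rpl22tm1.1Psam/J mice, so that the Camk2a promoter drives the Cre that tags the ribosomal protein Rpl22 with HA. From each mouse 6 libraries were sequenced: RNA on ribosomes pulled down with an antibody to S6 of the ribosome in its phosphorylated form (pS6, which marks highly active neurons), RNA on HA-tagged ribosomes (Camk2a) and RNA without pull-down (Input), each from the membrane fraction (the pellet) and from the cytosolic fraction (the supernatant). The mice were 7 CFC SD, 8 CFC Sleep, 7 NoCFC SD and 8 NoCFC Sleep animals, where CFC is contextual fear conditioning and SD is sleep deprivation. Ages, and how long sleep was prevented, are not in the labels. The pS6 antibody is not limited to a cell type, and Input holds every cell of the tissue.

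Libraries held between 11.98 and 26.95 M counts (M, mega-counts). The titles number the mice in runs that coincide with training: numbers 12 to 22 belong to CFC animals, numbers 1 to 11 to NoCFC animals, and the last run, 23 to 30, has 2 animals from every group. The labels name no batch. The labelled cell type was checked on markers: in the cytosolic fraction, all 12 microglial and all 12 astrocyte markers were lower in Camk2a than in Input, and 8 of 10 excitatory markers were higher. The membrane fraction and the other marker lists are not part of this check. Microglial marker sums were far higher in Camk2a membrane than in Camk2a cytosolic libraries, as given below. The pS6 libraries of mice 12 and 19 had the highest astrocyte marker sums, and the Input membrane libraries of mice 16, 22 and 30 stood apart as well, so the results that rest on them were also computed without them. In such bulk libraries, fewer cells of a type and less RNA per cell cannot be told apart.

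Proteasome genes were expressed in every library type, and their levels separated captures and fractions more clearly than training or sleep groups. Levels are given in CPM, the counts of a gene divided by the effective size of the library in mega-counts, on a scale common to all libraries, as the lowest, the median and the highest of the mice of a group. Summed over the 14 constitutive core genes, the level was 1032, 1137 and 1295 CPM in pS6 membrane libraries and 1587, 1726 and 2027 CPM in pS6 cytosolic libraries. It was 1225, 1439 and 1695 CPM in Camk2a membrane libraries and 2257, 2494 and 2896 CPM in Camk2a cytosolic libraries. In Input it was 715.6, 817 and 909.1 CPM in the membrane fraction and 1423, 1566 and 1773 CPM in the cytosolic fraction. Within each capture the membrane range lay wholly below the cytosolic range, and the Camk2a cytosolic libraries were above all others.

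The 17 genes of the regulatory particle, 9 of the base and 8 of the lid, were ordered differently. Their sum was 1354, 1517 and 1701 CPM in pS6 membrane libraries and 1872, 2087 and 2246 CPM in pS6 cytosolic libraries. In Camk2a libraries it was 2023, 2294 and 2603 CPM in the membrane fraction and 3579, 3820 and 4140 CPM in the cytosolic fraction. In Input it was 1446, 1560 and 1971 CPM in the membrane fraction and 2405, 2596 and 2855 CPM in the cytosolic fraction. For the core, pS6 cytosolic libraries had a higher median than Input cytosolic libraries, whereas for the regulatory particle all pS6 cytosolic libraries lay below all Input cytosolic libraries.

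The ratio of the core sum to the regulatory sum therefore set the pS6 capture apart. Membrane ratios were 0.700, 0.749 and 0.855 in pS6, 0.578, 0.630 and 0.665 in Camk2a, and 0.461, 0.520 and 0.559 in Input. In the cytosolic fraction it was 0.776, 0.845 and 0.911 in pS6, 0.612, 0.649 and 0.707 in Camk2a, and 0.516, 0.606 and 0.665 in Input. In both fractions every pS6 library had a higher ratio than every Camk2a and every Input library. Camk2a exceeded Input in 30 of 30 mice in the membrane fraction and in 29 of 30 mice in the cytosolic fraction, and the membrane ratio was below the cytosolic ratio in 28 of 30 mice for pS6, 21 of 30 for Camk2a and 30 of 30 for Input.

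**Figure D1:**
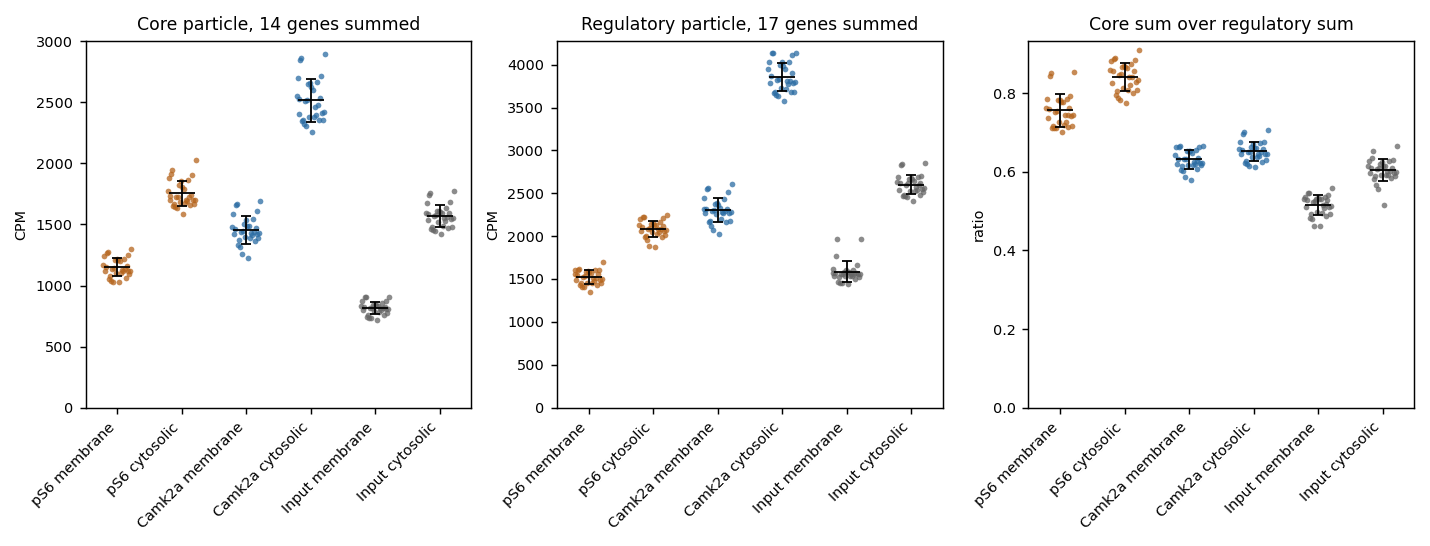
Summed level of the 14 core genes (CPM), summed level of the 17 regulatory particle genes (CPM) and their ratio in each of the 30 mice (points) for the 6 library types, with mean and SD as bars. Membrane libraries lie below cytosolic libraries of the same capture in both sums, and the pS6 ratios, 0.700 to 0.855 and 0.776 to 0.911, lie above those of the other captures of the same fraction.

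Among single genes the levels per kilobase of exon spread over a wide range. The exon length counts all annotated exons of a gene, for instance 6383 bases for Psmd11 and 1394 for Psmc5. It need not be the length of the expressed transcript, so ranks and medians per kilobase depend on the annotation. In Camk2a cytosolic libraries Psmc5, an ATPase of the base, had the highest level per kilobase of the 31 particle genes (mean 236.6 CPM per kb). Next came Psmb2, a beta subunit, with 184.1 CPM per kb. The lowest level per kilobase belonged to Psmd11, a lid subunit, with 23.8 CPM per kb. Medians of the level per kilobase were close for the core and the regulatory particle in this library type, 65.7 and 64.7 CPM per kb. The core had the higher median in Camk2a membrane libraries, 41.4 CPM per kb against 30.0 for the regulatory particle. It also had the higher median in pS6 libraries, with 32.5 against 23.5 CPM per kb in the membrane fraction and 48.7 against 39.4 in the cytosolic fraction. In Input the medians were 21.8 and 22.3 CPM per kb in the membrane fraction and 42.4 and 39.3 in the cytosolic fraction, core first.

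The tissue-restricted genes were near the lower end. Psma8, the testis-type alpha subunit, never exceeded 1.20 CPM and had a median of 0 in Camk2a cytosolic libraries. Psmb11, the thymus-type beta subunit, had medians from 0.154 to 0.362 CPM over the 6 library types, and Psme2b had medians from 0.296 to 0.602 CPM. No fold of these 3 genes is given, but where they passed the filter on low counts they are part of the member counts and medians. Psmb8 and Psmb9 stayed under 4 CPM in every library, whereas Psmb10, the third subunit of that kind, was more abundant, with a median of 82.0 CPM in pS6 cytosolic libraries and 28.9 CPM in Input membrane libraries.

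The particle genes varied little between mice of a group. The SD of log2(CPM + 0.5) within a group, taken for each of the 31 particle genes, had a median between 0.089 in Input cytosolic and 0.135 in pS6 membrane libraries, and ranged over genes and types from 0.051 to 0.179. It ranged from 0.098 to 0.55 for Psma8, Psmb11, Psme2b, Psmb8 and Psmb9, which had few counts, and from 0.048 to 0.424 for the other 14 members. The authors' counting strand is not stated, so reads of a member and of a gene overlapping its exons cannot be told apart. Such overlaps touch Psmd1, Psmb7, Psmc3, Psma5, Psmd9, Psmg3, Psmd13, Psmb5, Psme1, Psma4, Psme2b, Psmd3, Psmc3ip, Psmb9 and Psmb8.

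Nearly all proteasome genes were lower in membrane than in cytosolic libraries. By the edgeR quasi-likelihood test, with adjusted p under 0.05 over all genes, 45 of 48 tested members were lower and 2 higher in Camk2a membrane libraries, where 47.1% of all genes were lower and 43.1% higher. In pS6, 44 of 50 were lower and 4 higher, beside 43.4% and 42.1% of all genes. In Input, 45 of 49 were lower and 4 higher, beside 48.3% and 40.3% of all genes. All 14 core genes were lower in each of the 3 comparisons.

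The median log2 difference of the tested members, membrane minus cytosolic, was -0.65 in Camk2a, -0.50 in pS6 and -0.75 in Input, with medians over all genes of -0.07, -0.03 and -0.12 in the same order. The core medians were -0.69, -0.57 and -0.99, and the regulatory particle medians -0.60, -0.47 and -0.75. The lid had medians of -0.79, -0.69 and -0.78, and the 3 non-ATPase genes of the base had -0.15, -0.18 and -0.65. A fold of 2 or more lower was passed by 8 members in Camk2a, 2 in pS6 and 14 in Input, where 10.2%, 9.96% and 8.97% of all genes did so.

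Psmd5, a chaperone that helps to build the base (ENSMUSG00000026869, chr2:34849734-34874968, minus strand), had the largest fall in each capture. Psmd5 was at 41.4, 51.1 and 60.9 CPM in Camk2a membrane libraries, against 127.1, 146.4 and 165.8 CPM in Camk2a cytosolic libraries. It was at 24.8, 35.1 and 41.7 CPM in pS6 membrane libraries, against 67.7, 74.2 and 87.3 CPM in pS6 cytosolic libraries. In Input it was at 41.5, 45.8 and 60.7 CPM in the membrane fraction and 102.1, 115.7 and 138.5 CPM in the cytosolic fraction. The membrane and cytosolic ranges did not overlap in any capture, and the log2 differences were -1.43 ± 0.03 in Camk2a, -1.11 in pS6 and -1.32 ± 0.03 in Input (edgeR, SE, adjusted p = 6.88e-51 in Camk2a and 1.41e-48 in Input).

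Psmd2, a large scaffold subunit of the base, was at 159.2, 179.4 and 194.8 CPM in Camk2a membrane libraries, against 342.9, 372.8 and 414.2 CPM in Camk2a cytosolic libraries. The ranges stood far apart, and the log2 difference was -0.97 ± 0.02 (edgeR, adjusted p = 5.71e-50). Others with large falls in Camk2a were the lid subunit Psmd8 (-1.25), the base ATPases Psmc6 (-1.22) and Psmc4 (-1.17) and the alpha subunit Psma3 (-1.11).

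In pS6 the beta subunit Psmb2 was at 68.2, 80.5 and 96.9 CPM in membrane libraries, against 140.8, 154.2 and 187.3 CPM in cytosolic libraries. Psme3, the nuclear activator known as PA28 gamma (chr11:101316213-101323537, plus strand), was at 77.8, 97.6 and 126 CPM in pS6 membrane libraries, against 171.9, 195.9 and 215.1 CPM in pS6 cytosolic libraries. Both genes had separate ranges, with log2 differences of -0.93 ± 0.03 for Psmb2 and -0.96 ± 0.03 for Psme3 (edgeR, adjusted p = 7.77e-39 and 8.78e-38). In Input the beta subunit Psmb1 was at 79.5, 90.0 and 107.6 CPM in the membrane fraction, against 171.7, 188.2 and 217.4 CPM in the cytosolic fraction, again with no overlap and a log2 difference of -1.05 ± 0.03 (edgeR, adjusted p = 8.4e-47).

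Of the 3 interferon-inducible beta subunits, Psmb8 and Psmb9 went the other way in all 3 captures. Psmb10 did not: it was lower in the membrane fraction by log2 differences of -0.13 in Camk2a, -0.57 in pS6 and -0.68 in Input (edgeR, adjusted p = 0.0159, 1.72e-19 and 1.08e-24). Psmb8 was at 0.700, 1.17 and 2.07 CPM in Camk2a membrane libraries, against 0.049, 0.278 and 0.903 CPM in Camk2a cytosolic libraries. It was higher in the membrane library in 30 of 30 mice for Camk2a, 29 of 30 for pS6 and 29 of 30 for Input, while the ranges overlapped, and the log2 differences were 2.07 ± 0.15, 1.09 and 0.68 in that order (edgeR, adjusted p = 2.9e-20, 2.33e-12 and 3.86e-10). Psmb9 was higher by 0.97 ± 0.16, 0.68 and 0.41 on the log2 scale in the same order (edgeR, adjusted p = 1.16e-07, 2.03e-07 and 0.000367). Its exons overlap those of the antigen processing gene Tap1 on the other strand, and the part of Tap1 reads was not tested. The summed level of 12 microglial markers lay between 226.7 and 597.6 CPM in Camk2a membrane libraries and between 13.9 and 24.4 CPM in Camk2a cytosolic libraries. In Input those sums were 1028 to 1443 CPM in the membrane fraction and 127.2 to 196.2 CPM in the cytosolic fraction, all 12 markers were higher in the membrane fraction in each capture, and their part in the levels of Psmb8 and Psmb9 was not tested.

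**Figure D2:**
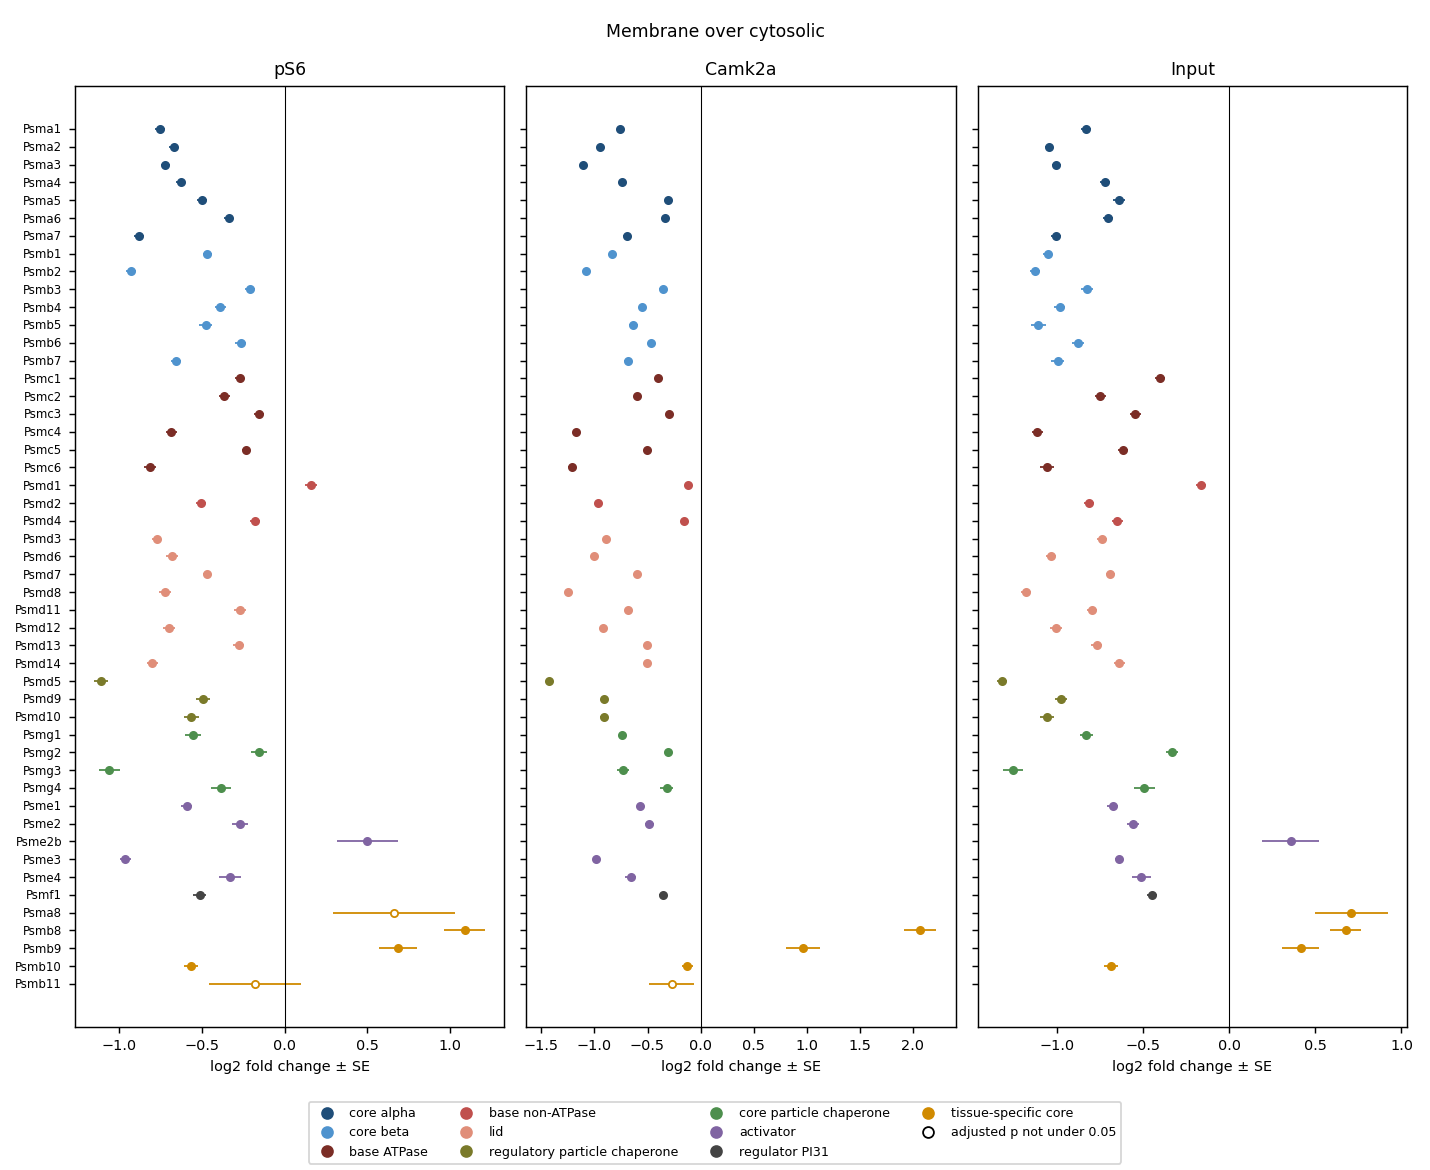
Log2 difference of each member, membrane minus cytosolic, with its SE as bars, in pS6, Camk2a and Input, from edgeR fits of 60 libraries each. Core and regulatory particle genes lie left of 0 apart from Psmd1 in pS6, and Psmb8 and Psmb9 lie to the right in each panel.

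The regulatory particle gene that broke the pattern was Psmd1, the other large scaffold subunit of the base. Psmd1 was at 85.9, 101.5 and 124.6 CPM in pS6 membrane libraries, against 81.1, 90.9 and 113 CPM in pS6 cytosolic libraries. The ranges overlapped, 22 of 30 mice had the higher value in the membrane library, and the log2 difference was 0.16 ± 0.04 by edgeR with composition-corrected scaling and -0.07 with library totals alone. With library totals in place of that scaling, the median of all genes shifted by -0.26 in Camk2a, -0.23 in pS6 and -0.26 in Input, so the member differences above are relative to a centre set by the scaling.

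Over the 30 mice, the membrane and cytosolic ranges of CPM did not overlap for 34 of the 50 members in Camk2a, 24 in pS6 and 38 in Input. For the core alone this held for 12, 9 and 14 of 14 genes in the same order. In paired terms, 41 members in Camk2a, 33 in pS6 and 40 in Input were lower in the membrane library of every mouse. Such counts were not made over all genes, most of which edgeR called between fractions, so they do not set the members apart.

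Camk2a ribosomes carried more proteasome RNA than Input did in both fractions. In the cytosolic fraction 42 of 49 tested members were higher in Camk2a and 5 lower (edgeR, adjusted p under 0.05), beside 38.6% and 43.1% of all genes. For membrane libraries 39 of 49 were higher and 6 lower, beside 40.3% and 42.3% of all genes. All 14 core genes were higher in both fractions, as were 17 of 17 regulatory particle genes in cytosolic libraries and 16 of 17 in membrane libraries. The median log2 difference of members was 0.40 in the cytosolic fraction and 0.44 in the membrane fraction, against -0.03 and -0.02 for all genes. In all capture comparisons the differences are relative to a centre set by the scaling. Each fit was scaled over its own 60 libraries and the CPM over all 180, so folds read from CPM can differ from the log2 differences. The factors over all 180 had geometric means of 0.956 in Camk2a and 1.186 in Input cytosolic libraries, and of 0.860 and 0.993 in membrane libraries.

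Among core genes the alpha subunit Psma4 was at 140, 150.8 and 178.6 CPM in Camk2a cytosolic libraries, against 71.2, 76.5 and 87.7 CPM in Input cytosolic libraries. Psmd6, a lid subunit, was at 168.8, 179.9 and 199.2 CPM in Camk2a cytosolic libraries, against 91.1, 98.0 and 110.2 CPM in Input cytosolic libraries. Both were higher in Camk2a in 30 of 30 mice without overlap, with log2 differences of 0.79 ± 0.02 for Psma4 and 0.71 ± 0.02 for Psmd6 (edgeR, adjusted p = 5.22e-41 and 1.16e-41). Psma1 (0.70), an alpha subunit, and the base ATPases Psmc2 (0.63) and Psmc6 (0.61) followed.

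In the membrane fraction the alpha subunit Psma6 was at 96.0, 123.4 and 146.2 CPM in Camk2a libraries, against 52.2, 62.1 and 75.6 CPM in Input libraries. Psmb1 was at 139.1, 156.6 and 186 CPM in Camk2a membrane libraries, against 79.5, 90.0 and 107.6 CPM in Input membrane libraries. Neither gene's ranges overlapped, and the log2 differences were 0.89 ± 0.03 for Psma6 and 0.70 ± 0.03 for Psmb1 (edgeR, adjusted p = 2.83e-36 and 4.34e-36). The catalytic subunit Psmb5 (1.00), the beta subunit Psmb3 (0.94), the ubiquitin receptor Psmd4 (0.88) and the alpha subunit Psma5 (0.88) had differences of that size too.

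The members called lower in Camk2a than in Input were all outside the 31 particle genes. Psmb8 was at 0.049, 0.278 and 0.903 CPM in Camk2a cytosolic libraries, against 0.895, 1.33 and 2.79 CPM in Input cytosolic libraries. Psmb9 was at 0.137, 0.682 and 1.22 CPM in Camk2a cytosolic libraries, against 0.639, 1.49 and 2.12 CPM in Input cytosolic libraries. Both were lower in Camk2a in 30 of 30 mice with ranges that overlapped, with log2 differences of -2.35 ± 0.14 and -1.29 ± 0.13 (edgeR, adjusted p = 6.97e-24 and 1.76e-13). Psmb10 (-0.30), the activator Psme2 (-0.18), which is PA28 beta, and Psme3 (-0.12) were lower by less. In CPM, Psmb8 and Psmb9 were the only 2 members lower in Camk2a in all mice, and differences as small as those of Psme2 and Psme3 can depend on the scaling.

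Psme3 stood further below Input in the membrane fraction. It was at 86.9, 102.5 and 119.6 CPM in Camk2a membrane libraries, against 121.2, 134.2 and 145.7 CPM in Input membrane libraries. The ranges did not overlap, and the log2 difference was -0.48 ± 0.02 (edgeR, adjusted p = 4.17e-28). Psmb8 had a log2 difference of -0.97 ± 0.10 in these libraries (edgeR, adjusted p = 5.09e-14).

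Set against Camk2a, pS6 ribosomes carried less proteasome RNA, and the deficit was deeper in the regulatory particle. In the cytosolic fraction 37 of 49 tested members were lower in pS6 and 8 higher (edgeR, adjusted p under 0.05), beside 42.6% and 47.2% of all genes. For membrane libraries 35 of 48 were lower and 8 higher, beside 37.6% and 44.7% of all genes. The median log2 difference of pS6 minus Camk2a in the cytosolic fraction was -0.94 for the regulatory particle, -0.59 for the core and 0.07 for all genes. The membrane medians were -0.63 for the regulatory particle, -0.39 for the core and 0.09 for all genes.

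All 8 members more than 2-fold lower in pS6 cytosolic libraries belonged to the regulatory particle, where 8.36% of all genes passed that limit. Psmd11, a lid subunit, was at 54.2, 62.5 and 68.9 CPM in pS6 cytosolic libraries, against 137.7, 151.8 and 172.8 CPM in Camk2a cytosolic libraries. Psmc2, a base ATPase, was at 92.9, 102.4 and 113.8 CPM in pS6 cytosolic libraries, against 209.7, 227 and 257.6 CPM in Camk2a cytosolic libraries. The ranges of both genes stood apart, with log2 differences of -1.28 ± 0.03 for Psmd11 and -1.13 ± 0.02 for Psmc2 (edgeR, adjusted p = 7.16e-49 and 2.19e-49). Psmd2 (-1.19), Psmc4 (-1.18) and Psmd6 (-1.09) were close behind.

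In the membrane fraction Psmd4, a ubiquitin receptor, was at 85.0, 97.5 and 113.6 CPM in pS6 libraries, against 147, 188 and 228.5 CPM in Camk2a libraries. Psmd2 was at 99.4, 111.7 and 131.6 CPM in pS6 membrane libraries, against 159.2, 179.4 and 194.8 CPM in Camk2a membrane libraries. The ranges did not overlap, and the log2 differences were -0.92 ± 0.03 for Psmd4 and -0.67 ± 0.03 for Psmd2 (edgeR, adjusted p = 2.17e-35 and 7.7e-33). Psmc2 (-0.84), Psmd11 (-0.81), Psmd13 (-0.74), which is a lid subunit, and Psmd6 (-0.71) were lower as well.

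A small set went the other way. Psmb10 was at 66.5, 82.0 and 99.9 CPM in pS6 cytosolic libraries, against 32.3, 41.9 and 55.4 CPM in Camk2a cytosolic libraries. Psmg4, a chaperone of core assembly, was at 14.9, 18.6 and 25.8 CPM in pS6 cytosolic libraries, against 8.27, 10.9 and 15.7 CPM in Camk2a cytosolic libraries. The Psmb10 ranges did not overlap and the Psmg4 ranges did by a little, with log2 differences of 0.96 ± 0.05 and 0.80 ± 0.06 (edgeR, adjusted p = 3.69e-29 and 1.32e-19). In the membrane fraction the differences were 0.57 ± 0.05 for Psmb10 and 0.79 ± 0.06 for Psmg4 (edgeR, adjusted p = 3.51e-18 and 1.26e-18). Of the 31 particle genes, Psmd14, the deubiquitinase of the lid, and the alpha subunit Psma7 were the only 2 called higher in pS6 cytosolic than in Camk2a cytosolic libraries, each by 0.18 on the log2 scale.

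Markers of other cells moved with this comparison. All 12 microglial markers were higher in pS6 than in Camk2a in both fractions, and so were 12 of 12 inhibitory neuron markers in cytosolic libraries and 11 of 12 in membrane libraries. Excitatory markers were lower for 8 of 10 in each fraction. The excitatory marker sum lay between 8091 and 11324 CPM in pS6 cytosolic libraries and between 9961 and 13071 CPM in Camk2a cytosolic libraries, and the microglial sum between 51.8 and 99.8 CPM in pS6 and between 13.9 and 24.4 CPM in Camk2a. No marker of these lists was at 0 in all libraries of a type, and their part in the particle differences was not tested.

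**Figure D3:**
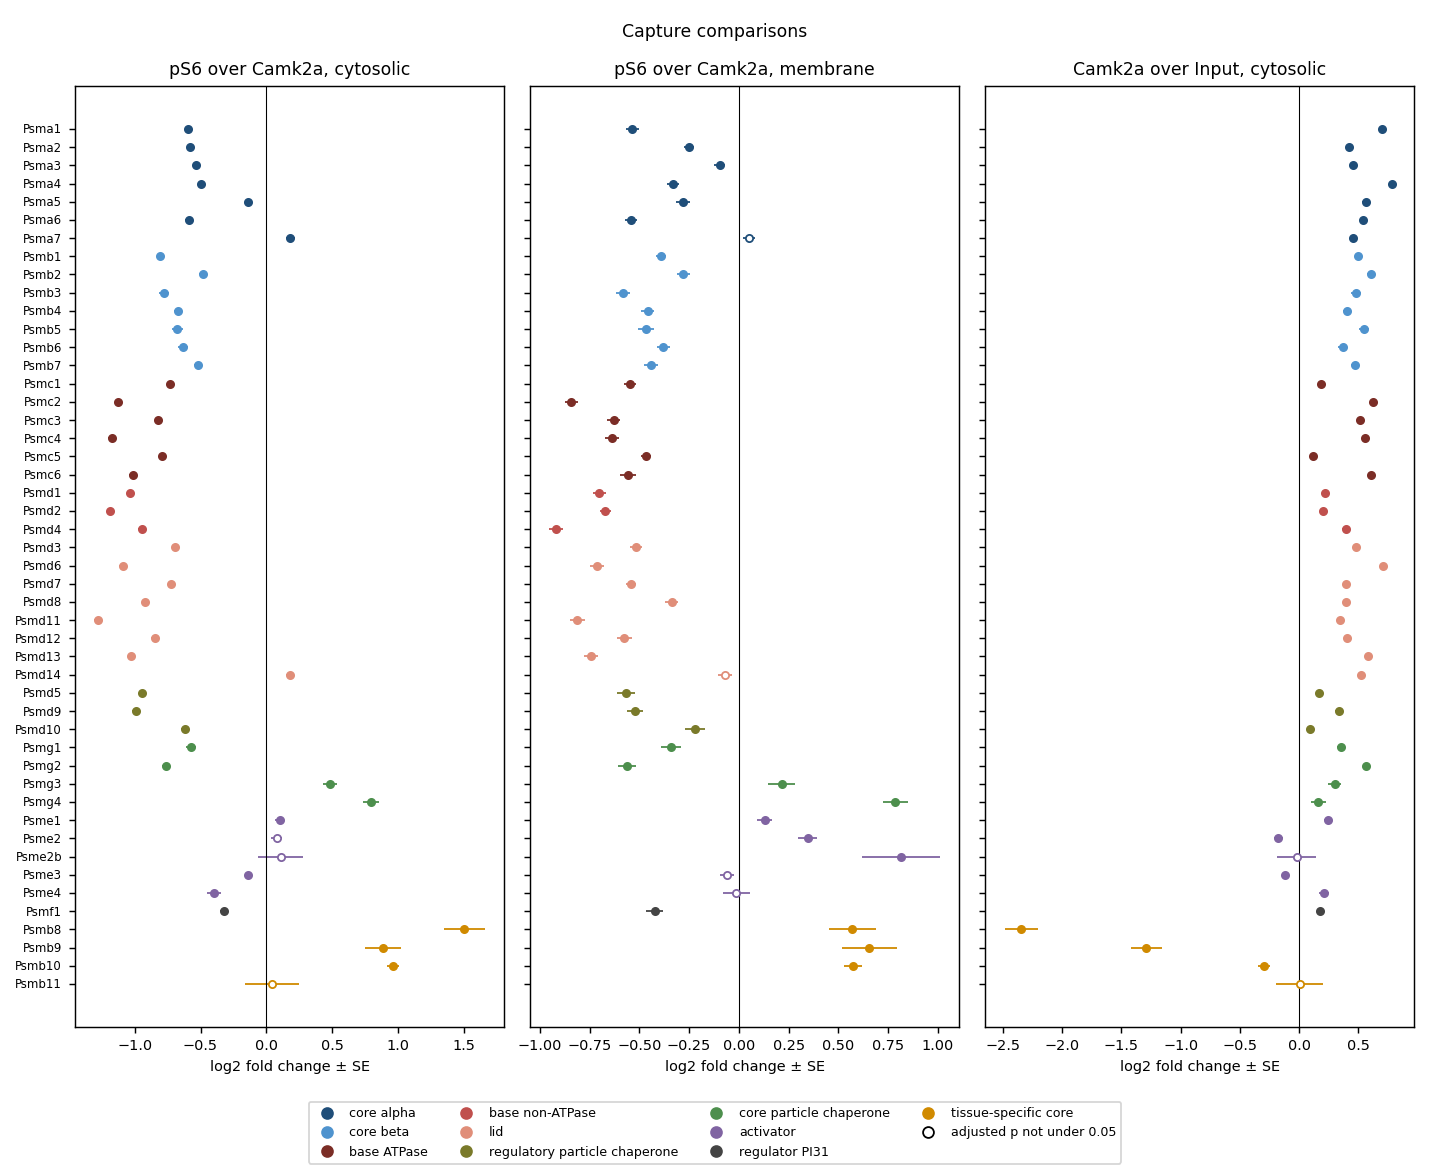
Log2 difference of each member with its SE as bars for pS6 minus Camk2a in the cytosolic fraction, pS6 minus Camk2a in the membrane fraction, and Camk2a minus Input in the cytosolic fraction, from edgeR fits of 60 libraries each. Regulatory particle genes reach -1.28 (Psmd11) in the cytosolic pS6 panel, below the core, whereas both particles lie right of 0 against Input.

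Against Input, pS6 ribosomes split the particles. In the cytosolic fraction 12 of 50 tested members were higher in pS6 and 29 lower (edgeR, adjusted p under 0.05), beside 40.5% and 44.6% of all genes. Of these, 6 core genes were higher and 5 lower, whereas 1 regulatory particle gene was higher and 16 lower, with a median of -0.39 against 0.04 for the core. For membrane libraries 22 of 49 were higher and 15 lower, beside 35.4% and 40.1% of all genes. There all 14 core genes were higher, with a median log2 difference of 0.37, while 3 regulatory particle genes were higher and 10 lower, with a median of -0.09. The pS6 comparisons use the same pS6 libraries and the Input comparisons the same Input libraries, so they are not independent of each other.

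Psmd14 was the 1 regulatory particle gene higher in pS6 than in Input in the cytosolic fraction. Psmd14 was at 150.1, 182 and 215 CPM in pS6 cytosolic libraries, against 85.6, 100.8 and 113.9 CPM in Input cytosolic libraries. Psma7 was at 248.6, 281.8 and 336.4 CPM in pS6 cytosolic libraries, against 141.7, 165.4 and 197.2 CPM in Input cytosolic libraries. No ranges overlapped, and the log2 differences were 0.80 ± 0.03 for Psmd14 and 0.75 ± 0.03 for Psma7 (edgeR, adjusted p = 7.11e-38 and 2.76e-32). The core chaperones Psmg4 (1.06) and Psmg3 (0.89) had the largest differences, from lower levels.

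On the other side, Psmd11 was at 54.2, 62.5 and 68.9 CPM in pS6 cytosolic libraries, against 99.7, 105.8 and 119.6 CPM in Input cytosolic libraries. Psmd2 was at 133.2, 162.3 and 186.2 CPM in pS6 cytosolic libraries, against 257.3, 283.6 and 335.0 CPM in Input cytosolic libraries. Both had separate ranges, with log2 differences of -0.83 ± 0.03 for Psmd11 and -0.88 ± 0.03 for Psmd2 (edgeR, adjusted p = 1.06e-39 and 1.03e-37). Psmd1 (-0.70) and Psmd5 (-0.67) were lower too.

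In the membrane fraction Psma7 was at 125.4, 152.1 and 184.1 CPM in pS6 libraries, against 70.3, 83.2 and 93.1 CPM in Input libraries. Psmb10 was at 41.5, 55.1 and 67.4 CPM in pS6 membrane libraries, against 23.6, 28.9 and 34.0 CPM in Input membrane libraries. These ranges did not overlap, and the log2 differences were 0.82 ± 0.03 for Psma7 and 0.83 ± 0.04 for Psmb10 (edgeR, adjusted p = 1.65e-36 and 2.34e-27). Lower in pS6 were Psmd2 (-0.63 ± 0.03, edgeR adjusted p = 1.01e-27) and Psme3 (-0.53 ± 0.03, edgeR adjusted p = 5.85e-25). Without the libraries that stood apart, 25 members were higher and 10 lower, with 4 regulatory particle genes higher and 6 lower.

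The coding sequences of the regulatory particle genes are longer, 930 to 2859 bases with a median of 1254, than those of the core genes, 603 to 831 bases with a median of 741. Over the 31 particle genes, Spearman's rank correlation between coding length and the log2 difference was -0.70 for pS6 minus Camk2a in the cytosolic fraction, -0.66 for the same in the membrane fraction, -0.70 for pS6 minus Input in the cytosolic fraction and -0.81 for pS6 minus Input in the membrane fraction. Within the 14 core genes the rank correlation for pS6 minus Camk2a was -0.22 in membrane libraries and 0.00 in cytosolic libraries, and within the 17 regulatory particle genes it was -0.29 in membrane libraries and -0.32 in cytosolic libraries. For pS6 minus Input the values within the core were 0.03 in membrane libraries and 0.18 in cytosolic libraries, and within the regulatory particle they were -0.66 and -0.38. These are descriptions across genes that share their libraries, and the part of length in the capture differences was not tested.

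Whether a capture difference depended on the fraction was tested as the difference between the fractions, membrane minus cytosolic. For pS6 minus Camk2a it was higher in the membrane fraction for 36 of 50 members and lower for 5 (edgeR, adjusted p under 0.05), beside 30.1% and 20.2% of all genes. Of the core genes 12 were higher, and of the regulatory particle genes 15 were higher and 1 lower (no core gene was lower), so the deficit of pS6 was smaller in the membrane fraction. Median-ratio scaling shifted the median of all genes by -0.10 in this test and gave 8 members lower. Psmd2 had 0.58 ± 0.04 (edgeR, adjusted p = 2.52e-29), Psmd8 had 0.64 and Psmc4 0.60, whereas Psmd14 had -0.18 and Psmb10 -0.33.

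For pS6 minus Input, 34 members were higher in the membrane fraction and 2 lower, beside 31.6% and 16.1% of all genes. Beta subunits led: Psmb1 had 0.58 ± 0.04 (edgeR, adjusted p = 2.53e-28), Psmb5 0.63, Psmb3 0.62, Psmb6 0.61 and Psmb4 0.59. Psme3 (-0.32) and Psmd14 (-0.17) were the 2 lower. For Camk2a minus Input 17 members were higher and 15 lower, beside 28.1% and 28.2% of all genes. Of the core genes 9 were higher and 2 lower, with 6 of the 7 beta subunits among the higher, whereas of the regulatory particle genes 3 were higher and 8 lower. Psmd4 (0.37) was among the higher, and Psme3 (-0.48 ± 0.03, edgeR adjusted p = 1.75e-29) and Psmd2 (-0.29) among the lower. Each of these tests was scaled over the libraries of both captures and both fractions together. Its values therefore need not equal the gap between the capture differences given above, which were scaled within a fraction. They are relative to a centre set by that scaling, and the side of small differences, and with it the counts each way, can depend on it.

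Sleep deprivation moved few proteasome genes. In Camk2a cytosolic libraries 1 of 48 tested members was higher in SD and 1 lower (edgeR, adjusted p under 0.05), beside 4.13% and 2.15% of all genes, and neither belonged to the 31 particle genes. The 2 were Psmd9, a chaperone that assists assembly of the ATPase ring, and Psme4, the large activator PA200 known for roles in spermatogenesis and DNA repair. The core sum in these libraries was 2257, 2475 and 2896 CPM in CFC SD mice against 2349, 2558 and 2862 CPM in CFC Sleep mice, and 2359, 2461 and 2668 CPM in NoCFC SD mice against 2304, 2486 and 2850 CPM in NoCFC Sleep mice. The regulatory particle sum was 3685, 3795 and 4140 CPM in CFC SD mice against 3579, 3843 and 4137 CPM in CFC Sleep mice, and 3651, 3829 and 3950 CPM in NoCFC SD mice against 3636, 3884 and 4030 CPM in NoCFC Sleep mice. All 4 groups overlapped in both sums. No cell type marker was called for sleep in these libraries, where the astrocyte sum lay between 334.5 and 509.1 CPM in SD mice and between 350.9 and 523.9 CPM in Sleep mice.

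Psme4 (ENSMUSG00000040850, chr11:30771726-30880361, plus strand) fell. It was at 13.7, 18.3 and 21.7 CPM in SD mice and 18.4, 21.7 and 24.3 CPM in Sleep mice. By group it was at 13.7, 18.9 and 21.7 CPM in CFC SD mice against 18.4, 21.5 and 23.8 CPM in CFC Sleep mice, and 16.9, 17.7 and 20.4 CPM in NoCFC SD mice against 18.5, 22.3 and 24.3 CPM in NoCFC Sleep mice. The ranges overlapped, while 13 of 14 SD mice lay below the median of the Sleep mice of their training arm, and the log2 difference was -0.25 ± 0.06 (edgeR, adjusted p = 0.00376).

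Psmd9 (ENSMUSG00000029440, chr5:123169413-123250131, plus strand, with exons overlapping Gm26745 on the other strand) rose. It was at 51.7, 59.2 and 66.6 CPM in SD mice and 48.2, 51.1 and 64.3 CPM in Sleep mice. By group it was at 54.3, 60.3 and 66.6 CPM in CFC SD mice against 48.2, 52.7 and 64.3 CPM in CFC Sleep mice, and 51.7, 55.9 and 63.4 CPM in NoCFC SD mice against 48.4, 50.7 and 55.5 CPM in NoCFC Sleep mice. The ranges overlapped, all 14 SD mice lay above the median of the Sleep mice of their arm, and the log2 difference was 0.15 ± 0.04 (edgeR, adjusted p = 0.0197). Without a filter on low counts the adjusted p by edgeR was 0.0676.

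**Figure D4:**
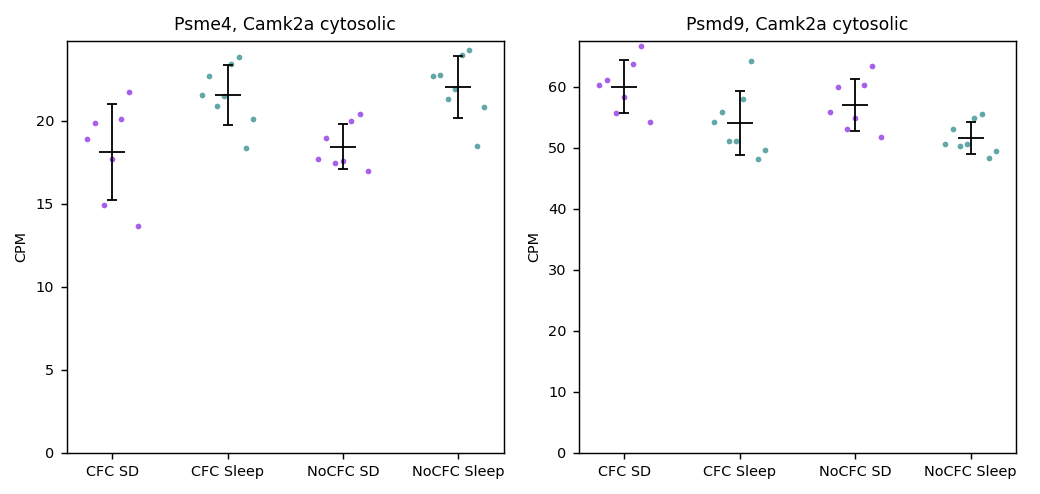
Level (CPM) of Psme4 and Psmd9 in the Camk2a cytosolic library of each mouse (points) for CFC SD, CFC Sleep, NoCFC SD and NoCFC Sleep, with mean and SD as bars. SD mice lie lower for Psme4, at 13.7 to 21.7 CPM, and higher for Psmd9, at 51.7 to 66.6 CPM, than Sleep mice in both training arms, with overlap.

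Within runs of title numbers the direction held for both genes. For Psme4 the log2 difference was -0.45 in mice 23 to 30 (edgeR, adjusted p = 0.0422) and -0.19 in mice 1 to 22 (edgeR, adjusted p = 0.128). In mice 23 to 30 Psme4 was at 13.7 and 17.7 CPM in CFC SD, 20.9 and 23.4 CPM in CFC Sleep, 16.9 and 17.7 CPM in NoCFC SD, and 21.3 and 24.3 CPM in NoCFC Sleep, so that the SD and Sleep values of these 8 mice did not overlap. For Psmd9 the difference was 0.14 in mice 23 to 30 and 0.15 in mice 1 to 22 (edgeR, adjusted p = 0.589 and 0.0975). Of all genes, edgeR called 0.506% higher and 0.276% lower in mice 23 to 30, and 1.87% higher and 0.748% lower in mice 1 to 22.

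In the other 5 library types edgeR called no member for sleep. At an unadjusted p under 0.05, edgeR counted 10 members in Camk2a membrane, 2 in Input cytosolic, 2 in Input membrane, 3 in pS6 cytosolic and 4 in pS6 membrane libraries. These were 21.3%, 4.26%, 4.17%, 6.12% and 8.33% of the members tested, beside 14.7%, 14.5%, 10.2%, 20.9% and 13.8% of all genes at that limit. DESeq2 called Psmd9 in Camk2a membrane (0.15, adjusted p = 0.0448) and in Input membrane libraries (0.18, adjusted p = 0.0463), and no member in the other 3. Of all genes, edgeR called 2.16%, 2.04%, 1.05%, 4.6% and 1.11% higher and 0.802%, 1.13%, 0.32%, 3.28% and 0.619% lower in these types, in the order of the unadjusted counts. The log2 difference of Psme4 ranged from -0.20 in pS6 membrane to -0.14 in Camk2a and Input membrane libraries (edgeR, adjusted p from 0.172 to 0.696). That of Psmd9 ranged from 0.05 in pS6 cytosolic to 0.18 in Input membrane libraries (edgeR, adjusted p from 0.0749 to 0.617). Whether the sleep difference varied between library types was tested separately, and those tests stand after the training results.

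Other signals stayed short of the threshold. Psmb9 in pS6 membrane libraries was at 0.692, 0.894 and 2.12 CPM in CFC SD mice against 1.75, 2.58 and 3.49 CPM in CFC Sleep mice, and 0.955, 2.22 and 3.10 CPM in NoCFC SD mice against 1.59, 1.95 and 3.08 CPM in NoCFC Sleep mice. The groups overlapped at these low levels, 10 of 14 SD mice lay below the Sleep median of their arm, and the log2 difference was -0.60 ± 0.19 (edgeR, adjusted p = 0.107, and 0.0548 with DESeq2). Psmc3, a base ATPase, was at 161, 180 and 192 CPM in SD mice and 160, 194 and 218 CPM in Sleep mice in pS6 cytosolic libraries. The SD values lay within the Sleep range, 14 of 14 SD mice were below the Sleep median of their arm, and the log2 difference was -0.09 (edgeR, adjusted p = 0.137). Over the tested members, the median log2 difference of SD minus Sleep lay between -0.06 in Camk2a membrane and -0.01 in Input and pS6 membrane libraries, while the medians of all genes were within 0.01 of 0.

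The promoters of Psmd9 and Psme4, the members called for sleep in Camk2a cytosolic libraries, are shown. Several proteasome genes are known targets of transcription factors that bind antioxidant response elements. The windows hold 250 bases before and 50 after the start of the gene as RefSeq gives it, on GRCm38.p6, plus strand, 5′ to 3′. For Psmd9 the RefSeq start lies well inside the longer span given above, which is from GENCODE. Psmd9 lies at chr5:123227940-123228239, Psme4 at chr11:30771525-30771824, and Psmb6, a catalytic core subunit with such a match close to its start, at chr11:70525107-70525406. Capitals mark matches to TGACNNNGC, the core of the antioxidant response element, on either strand, and to CCGGAAGT, a site of ETS factors, in Psme4.
Psmd9: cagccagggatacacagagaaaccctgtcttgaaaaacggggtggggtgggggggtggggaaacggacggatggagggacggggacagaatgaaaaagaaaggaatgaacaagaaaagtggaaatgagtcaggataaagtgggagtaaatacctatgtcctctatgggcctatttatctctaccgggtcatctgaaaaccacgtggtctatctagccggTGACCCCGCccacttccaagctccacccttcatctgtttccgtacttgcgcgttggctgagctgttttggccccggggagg
Psme4: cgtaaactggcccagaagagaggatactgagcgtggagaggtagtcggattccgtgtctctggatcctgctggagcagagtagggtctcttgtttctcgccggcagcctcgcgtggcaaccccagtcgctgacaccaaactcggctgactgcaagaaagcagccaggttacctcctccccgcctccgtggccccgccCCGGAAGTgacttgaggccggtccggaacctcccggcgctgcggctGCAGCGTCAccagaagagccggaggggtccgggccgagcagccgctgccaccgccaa
Psmb6: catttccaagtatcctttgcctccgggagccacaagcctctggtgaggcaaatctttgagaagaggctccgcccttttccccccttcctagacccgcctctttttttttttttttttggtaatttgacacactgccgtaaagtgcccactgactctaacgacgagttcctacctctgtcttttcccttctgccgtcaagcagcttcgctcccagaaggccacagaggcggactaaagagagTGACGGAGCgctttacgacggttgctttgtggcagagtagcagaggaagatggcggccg

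Windows were found for 42 members. TGACNNNGC, searched on both strands, occurred in 6 of the 42 (14.3%), namely Psmd9, Psmc6, Psmb5, Psme4, Psmb6 and Psmd12, and in 3781 of all 27025 promoters. The share of all promoters was nearly the same as that of the members, so this match does not set the members apart. CCGGAAGT occurred in 9 of the 42 (21.4%), among them Psme4, Psmd12, Psmd6 and Psmc2, and in 4.31% of all promoters. AAGATGGC, the YY1 motif, occurred in 3 members (7.14%) and 3.19% of all promoters, CCAAT in 15 members (35.7%) and 41.1%, CACGTG in 4 members (9.52%) and 8.09%, TGACTCA in 1 member (2.38%), Psmd9, and 5.95%, and TGACGTCA in 0 members and 2.03%. A TGACTCA followed by GC would also match TGACNNNGC, and a match describes the sequence only.

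Fear conditioning went with lower proteasome RNA in Camk2a membrane libraries, but the comparison coincides with the runs of title numbers. In Camk2a membrane libraries 17 of 47 tested members were lower in CFC and 0 higher (edgeR, adjusted p under 0.05), beside 7.17% lower and 9.81% higher of all genes. Of the core 8 of 14 were lower and of the regulatory particle 9 of 17, and 5 of the 6 base ATPases and 5 of the 7 alpha subunits were among them. The median log2 difference of CFC minus NoCFC was -0.15 for the core and -0.12 for the regulatory particle, against -0.01 for all genes. In pS6 membrane libraries 6 of 48 were lower and 1 higher, beside 8.75% and 8.1% of all genes, so the lower count was near the background.

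Psmc5, the base ATPase known as Rpt6 (ENSMUSG00000020708, chr11:106256154-106263120, plus strand), had the smallest p in Camk2a membrane libraries. Psmc5 was at 189, 205 and 229 CPM in CFC mice and 203, 228 and 246 CPM in NoCFC mice. Psma4 was at 72.0, 77.0 and 92.1 CPM in CFC mice and 81.5, 86.2 and 100.6 CPM in NoCFC mice. The ranges of both overlapped, 14 of 15 CFC mice for Psmc5 and 12 of 15 for Psma4 lay below the NoCFC median of their sleep arm, and the log2 differences were -0.18 ± 0.04 and -0.17 ± 0.04 (edgeR, adjusted p = 0.000716 and 0.00292). The alpha subunits Psma5 (-0.20) and Psma6 (-0.18) and the beta subunit Psmb4 (-0.18) completed the 5 largest. The others called lower were Psma1, Psma7, Psmb1, Psmb6, Psmc1, Psmc2, Psmc3, Psmc4, Psmd4, Psmd7, Psmd11 and Psmd14.

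In pS6 membrane libraries Psmc4 was at 45.7, 53.6 and 67.2 CPM in CFC mice and 50.9, 59.5 and 69.2 CPM in NoCFC mice. Psmc3 was at 140, 161 and 184 CPM in CFC mice and 138, 172 and 189 CPM in NoCFC mice. The ranges overlapped, 13 of 15 CFC mice for Psmc4 and 11 of 15 for Psmc3 lay below the NoCFC median of their arm, and the log2 differences were -0.25 ± 0.06 and -0.17 ± 0.05 (edgeR, adjusted p = 0.00228 and 0.00868). Psma1, Psma6, Psmc2 and Psmd4 were the other members called lower. Without the pS6 libraries of mice 12 and 19, 4 members were lower, and without a filter on low counts edgeR called 2 lower here and 10 in Camk2a membrane libraries.

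Psme3 was the member called higher in pS6 membrane libraries, at 89.1, 103.5 and 126 CPM in CFC mice and 77.8, 90.2 and 111.3 CPM in NoCFC mice. The ranges overlapped, and all 15 CFC mice lay above the NoCFC median of their arm in pS6, Camk2a and Input membrane libraries alike. The log2 difference was 0.18 ± 0.05 in pS6 membrane (edgeR, adjusted p = 0.0156), 0.07 in Camk2a membrane (edgeR, adjusted p = 0.287) and 0.06 in Input membrane libraries (edgeR, adjusted p = 0.239).

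With the run of title numbers as a term, and likewise in mice 23 to 30 alone, edgeR called 0 members for training in both membrane captures, with 3 at an unadjusted p under 0.05 in Camk2a and 9 in pS6 by either approach. In mice 23 to 30 alone these were 6.38% and 18.8% of the members tested, beside 7.68% and 9.14% of all genes. In mice 23 to 30, with 4 CFC and 4 NoCFC mice, the median member difference was -0.07 in Camk2a and -0.07 in pS6 membrane libraries. There Psmc5 differed by -0.07 and Psma4 by -0.16 in Camk2a membrane libraries, and Psmc4 by -0.25 and Psme3 by 0.20 in pS6 membrane libraries (edgeR, adjusted p = 0.862, 0.641, 0.471 and 0.476). Of all genes, edgeR called 0% in Camk2a membrane and 0.0601% higher and 0.012% lower in pS6 membrane libraries of these 8 mice. Training and run cannot be told apart in mice 1 to 22. With the run as a term, the training difference therefore rests on mice 23 to 30 as well, so the approaches are not separate checks.

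By run, Psmc5 in Camk2a membrane libraries was at 189.7, 205 and 217.9 CPM in CFC mice 12 to 22 and 189.2, 207.6 and 229.4 CPM in CFC mice 23 to 30. NoCFC mice 1 to 11 had 213.2, 231.8 and 245.9 CPM, and NoCFC mice 23 to 30 had 202.9, 210 and 228.2 CPM. By their median, the NoCFC mice of the last run lay nearer to the CFC mice than to the other NoCFC mice. Psme3 in pS6 membrane libraries was at 89.1, 102.8 and 122.1 CPM in CFC mice 12 to 22 and 107.5, 123.9 and 126 CPM in CFC mice 23 to 30. NoCFC mice 1 to 11 had 77.8, 85.6 and 95.9 CPM, and NoCFC mice 23 to 30 had 83.9, 103.9 and 111.3 CPM, so that the last run was higher in both training arms.

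**Figure D5:**
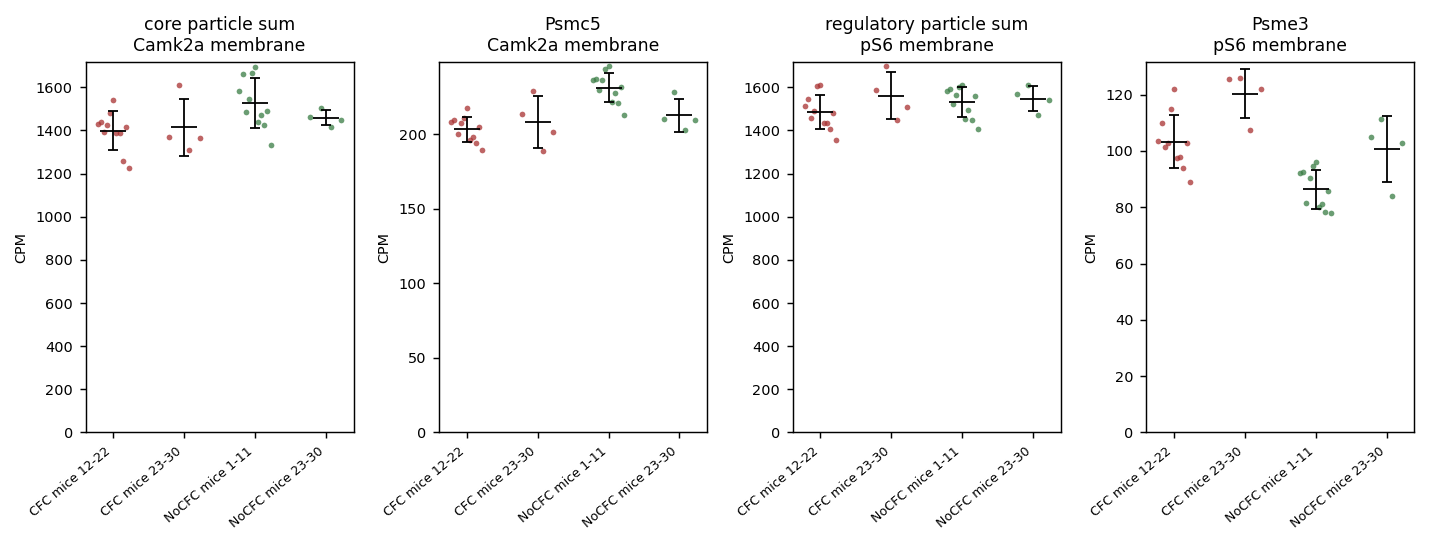
Level (CPM) in each mouse (points), with mean and SD as bars, for CFC mice 12-22, CFC mice 23-30, NoCFC mice 1-11 and NoCFC mice 23-30: core particle sum and Psmc5 in Camk2a membrane libraries, regulatory particle sum and Psme3 in pS6 membrane libraries. NoCFC mice 1-11 have the highest Psmc5 median (231.8 CPM) and the lowest Psme3 median (85.6 CPM) of the 4 sets.

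Markers of other cells moved with training in these libraries. In Camk2a membrane libraries 6 of 12 astrocyte, 7 of 12 microglial and 4 of 10 oligodendrocyte markers were higher in CFC by edgeR, and 4 of 10 excitatory markers were lower. The astrocyte sum lay between 2483 and 4832 CPM in CFC mice and between 2588 and 3703 CPM in NoCFC mice, and the microglial sum between 253.9 and 597.6 CPM in CFC mice and between 226.7 and 357.7 CPM in NoCFC mice. In pS6 membrane libraries 2 of 12 microglial and 4 of 10 endothelial and blood markers were higher in CFC. Their part in the member differences was not tested.

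In the other 4 library types edgeR called 0 members for training, as did DESeq2. At an unadjusted p under 0.05, edgeR counted 2 members in Camk2a cytosolic, 2 in Input cytosolic, 2 in Input membrane and 5 in pS6 cytosolic libraries. These were 4.17%, 4.26%, 4.17% and 10.2% of the members tested, beside 7.71%, 9.12%, 21.5% and 6.81% of all genes at that limit. Of all genes, edgeR called 0.128%, 0.169%, 3.63% and 0.127% higher and 0.0202%, 0.0502%, 2.9% and 0.00607% lower in these types, in that order.

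The runs of title numbers were also compared within groups, mice 23 to 30 against the earlier mice of the same group. In pS6 cytosolic libraries 2 of 49 tested members were lower in mice 23 to 30 (edgeR, adjusted p under 0.05), beside 0.801% lower and 0.0425% higher of all genes. These were Psmc5 (-0.14 ± 0.03, edgeR adjusted p = 0.0409) and Psma1 (-0.15 ± 0.04, edgeR adjusted p = 0.0489). With median-ratio scaling, or without a filter, edgeR called 0, and DESeq2 called 5. In the other types edgeR called 0, with 2 members at an unadjusted p under 0.05 in Camk2a cytosolic, 3 in Camk2a membrane, 3 in Input cytosolic, 2 in Input membrane and 6 in pS6 membrane libraries. Each count was a smaller share of the members tested, 4.17% to 12.5%, than the share of all genes at that limit, 6.88% to 16.5%. In pS6 cytosolic libraries the share of members was the larger, with 16 of 49 at that limit beside 2186 of 16485 genes. Of all genes, edgeR called 0%, 0.969%, 0.00627%, 0.0384% and 0.589% higher and 0%, 1.81%, 0%, 0.00639% and 0.457% lower in these 5 types, in that order. DESeq2 called Psme3 higher in the last run in Camk2a membrane (0.13, adjusted p = 0.0341) and pS6 membrane libraries (0.18, adjusted p = 0.0442).

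The run comparison was also made in each training arm. In pS6 cytosolic libraries of CFC mice edgeR called 0 members and 0% of all genes. At an unadjusted p under 0.05 it counted 2 of 49 members there, beside 1078 of 16485 genes. In the pS6 cytosolic libraries of NoCFC mice Psma1 (-0.25) and the lid subunit Psmd13 (-0.26) were lower in mice 23 to 30 (edgeR, adjusted p = 0.0234 and 0.0378), beside 0.558% lower and 0.0425% higher of all genes. At an unadjusted p under 0.05 edgeR counted 20 of 49 members in these libraries, beside 2120 of 16485 genes. The median log2 difference of the 31 particle genes was -0.04 in CFC mice, where 11 of 31 were above 0, and -0.13 in NoCFC mice, where 0 of 31 were above 0. In Camk2a membrane libraries Psme3 differed by 0.06 in CFC mice (edgeR, adjusted p = 0.915) and was higher in mice 23 to 30 by 0.20 in NoCFC mice (edgeR, adjusted p = 0.0488), beside 1.46% higher and 2.25% lower of all genes there. Whether the arms differed in this was not tested.

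No interaction with sleep was called for a member. For training by sleep, edgeR called 0 members in all 6 library types, with 1 at an unadjusted p under 0.05 in Camk2a membrane, 1 in pS6 cytosolic and 1 in pS6 membrane libraries and none in the rest, and DESeq2 also called 0. The share of all genes called by edgeR was 0% there, and at an unadjusted p under 0.05 it was 1.99% to 4.76%, against at most 2.13% of the members tested. For the sleep difference between fractions, edgeR and DESeq2 called 0, with 2 members at an unadjusted p under 0.05 in pS6 (4.0%, beside 4.72% of all genes), and of all genes edgeR called 0% by adjusted p. For the sleep difference between captures, edgeR and DESeq2 called 0, with 3 members at an unadjusted p under 0.05 for pS6 minus Camk2a in membrane libraries, 1 for the same in cytosolic libraries and 1 for pS6 minus Input in cytosolic libraries. These were 6.25%, 2.04% and 2.0% of the members tested, beside 4.45%, 8.3% and 7.57% of all genes at that limit. Over all genes, edgeR called 0.053% higher and 0.00589% lower for pS6 minus Camk2a in membrane libraries, and 0.365% and 0.221% in cytosolic libraries. For pS6 minus Input it called 0.0994% higher and 0.0117% lower in membrane libraries, and 0.508% and 0.164% in cytosolic libraries. For Camk2a minus Input it called 0% in membrane libraries, and 0% higher and 0.0122% lower in cytosolic libraries. In pS6 minus Camk2a membrane libraries, for instance, Psma4 had the smallest p, with a difference of 0.13 (edgeR, adjusted p = 0.999). The fits for fractions and captures had no mouse block, though they compare libraries of the same mice. With the mouse as block, edgeR gave Psma4 an adjusted p of 0.49. Psmg3 in pS6 minus Camk2a cytosolic libraries had -0.24 ± 0.07 with the block (edgeR, adjusted p = 0.0595, and 0.537 without it). The sleep differences of Psme4 and Psmd9 in Camk2a cytosolic libraries were not shown to differ from those in other types or between training arms.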

How the data were processed

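The deposited table holds whole-number read counts for 54429 genes in 180 libraries (30 mice, 6 library types of 30), not normalized by the authors. Per the labels' protocols, cDNA was amplified with the SMART-seq v4 kit. STAR 2.6.1a, featureCounts without a version, MultiQC 1.6a0 and the build GRCm38.p6 are named in the submitters' processing notes, and settings and strand are not given in the sources used here. A library held 11.98 to 26.95 M counts in all (M, mega-counts), so genes of a few counts are imprecise. No molecular identifiers are named in the labels, so a read need not stand for its own molecule. Replicates differed by more than sampling noise in all 588 pairs within groups, with a chi-square of at least 3.01 for each degree of freedom.

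Counts were fitted with edgeR 4.0.16 (R 4.3.3, limma 3.58.1): filterByExpr, TMM scaling, robust quasi-likelihood F-test, Benjamini-Hochberg adjustment over all genes tested, threshold 0.05. Training and sleep were fitted per library type with the 4 groups, fraction and capture over 60 libraries, and capture by fraction over 120. Levels are CPM with TMM factors over all 180 libraries, so that library types share a scale. Alternatives were DESeq2 1.42.0, median-ratio scaling, library totals, no filter, the run of title numbers as a term or apart, the mouse as block, and, chosen after seeing marker sums, leaving out 7 libraries. Some of the fits were also run on simulated counts with known changes, drawn as independent libraries without pairing by mouse. The outcome is not given here and no result rests on it.

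Libraries with the same title number were taken as the same mouse, since the extract protocol divides each homogenate. After removal of group means their correlation had a median of 0.333, against -0.068 for other numbers, and exceeded 0.1 in 376 of 450 cases. Nothing in the labels separates litters or cohorts.

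Per comparison, the members named first were the 5 called with the largest change each way, and values per group are given for the 2 with the smallest p each way. Members may be named whatever their result, as may genes of the lists of related pathways and cell type markers. Members and lists were chosen with earlier results of these data known. Gene positions and exon overlaps come from GENCODE vM21 on GRCm38, in which all 50 members were found.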

Additional observations from a re-analysis of the deposited data

Results flagged for a closer look

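In 4 of 100 groups of 7 or 8 mice a library stood apart from the rest of its group by Dixon's criterion, which chance meets in about 1 in 20 groups. The regulatory particle sum of mouse 16 (CFC Sleep) in Input membrane was 1971 CPM, with the next value at 1618 CPM. The core to regulatory ratio of mouse 3 (NoCFC Sleep) in pS6 membrane was 0.784, with the next at 0.746. Psmc5 of mouse 28 (NoCFC SD) in Camk2a membrane was 211 CPM, with the next at 228 CPM, and Psma4 of mouse 20 (CFC SD) in Camk2a membrane was 88.0 CPM, with the next at 76.5 CPM. Mouse 16 is among the Input membrane libraries with unusual marker sums.

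The capture differences changed with the fraction, by the edgeR test of the difference itself, relative to a centre set by the scaling. For Camk2a minus Input 17 of 50 members were higher in the membrane fraction and 15 lower, close to the background of 4785 and 4802 of 17054 genes. For pS6 minus Camk2a 36 were higher and 5 lower, beside 5445 and 3650 of 18109 genes. For pS6 minus Input 34 were higher and 2 lower, beside 5735 and 2928 of 18174 genes.

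The 4 pseudogenes of core subunits that the symbol rule left out gave few reads. Psmb6-ps2 had more than 3 reads in 30 libraries (348 reads in all 180), Psmb5-ps in 4 (67 reads) and Psmb6-ps in 2 (37 reads). In no library type did a pseudogene reach more than 0.117% of the reads of its parent gene. How the authors' counting divided reads between copies is not known.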

How the results depend on the processing

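Of 466 alternative counts of called members, 438 stayed within 1.5 times the count reported and 28 did not, and the cause was not tested. For pS6 minus Camk2a by fraction, 8 members were lower with DESeq2, without a filter and with median-ratio scaling, and for pS6 minus Input by fraction 5 were lower under those 3 settings and 21 higher without a filter. For training, members lower in Camk2a membrane numbered 10 without a filter and 0 with the run as a term or in mice 23 to 30, and in pS6 membrane 2 without a filter, with 0 lower and 0 higher in the run settings. With library totals 2 members were higher in the membrane fraction of Input and 2 in pS6. For the number run, DESeq2 called 1 higher in Camk2a membrane, 1 higher in pS6 membrane and 5 lower in pS6 cytosolic, where median-ratio scaling and no filter gave 0. For sleep in Camk2a cytosolic, 0 were higher without a filter and in either set of runs and 0 lower in mice 1 to 22, and DESeq2 called 1 higher in Camk2a membrane and 1 in Input membrane.

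Of 924 alternatives for single members 842 kept side and direction, 75 lost the call, 4 gained it and 3 reversed: Psmc1 for training in Camk2a membrane (0.003 with the run as a term and in mice 23 to 30) and Psmd1 for fraction in pS6 (-0.071 with library totals).

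With the mouse as a replicate block, 45 members were lower and 2 higher in the Camk2a membrane fraction, and 37 lower and 9 higher in pS6 minus Camk2a of either fraction. The pairing changed no count of members by over 1.5 times. Depth limits Psma8, Psmb11, Psme2b, Psmb8 and Psmb9 most. Groups of 7 or 8 were not reduced further.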

Other observations

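Other genes of protein breakdown, from lists of related pathways, were described for the same comparisons. Further lists, among them proteasome partners and ubiquitin genes, went through the same fits and are not described here. The COP9 signalosome, a complex related to the proteasome lid, was lower in membrane than in cytosolic libraries for 10 of 10 genes in Camk2a (median log2 difference -0.94), 9 of 10 in pS6 (-0.68) and 10 of 10 in Input (-0.90) by edgeR. Of all genes, 7427 of 15779, 7746 of 17855 and 7984 of 16529 were lower in the same order. In pS6 minus Camk2a, 9 of the 10 COP9 genes were lower in each fraction, with medians of -0.26 in membrane libraries and -0.61 in cytosolic libraries. All 11 tested genes of the ubiquitin shuttle and p97 list were lower in pS6 than in Camk2a in both fractions, with medians of -0.51 in membrane libraries and -0.60 in cytosolic libraries. The shares of all genes called in the capture comparisons stand beside the member counts above, and many genes were called each way.

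Antigen processing genes were higher in the membrane fraction for 9 of 9 in Camk2a (median 1.86), 9 of 10 in pS6 (1.95) and 9 of 9 in Input (1.97) by edgeR. Of all genes, 6802 of 15779, 7511 of 17855 and 6664 of 16529 were higher in the same order. In Camk2a minus Input 8 of 9 antigen processing genes were lower in the cytosolic fraction and 7 of 9 in the membrane fraction. Microglial markers took the same directions in these comparisons, and their part was not tested.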
